A study of Mus musculus with 2 samples.

Results

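The circadian clock genes of mouse hepatocytes were compared between cells that carried Ezrin T567D and cells sorted as negative for it. The 10 genes are Per1, Per2, Per3, Cry1, Cry2, Arntl, Clock, Dbp, Tef and Nfil3, and they were taken with every probe set annotated to 1 of them alone, 24 of the 34945 probe sets that carry 1 gene symbol (10 of 18193 genes). Both samples were hepatocytes of wild-type male FVB mice aged 6 to 8 weeks, measured on Affymetrix mouse arrays. The mice had received a hydrodynamic tail vein injection of 10 µg of the plasmid PT3EF5α EzrinT567D and 0.8 µg of pCMV/SB in 2 ml of saline, and cells were isolated 1 week later. Ezrin ties the plasma membrane to cortical actin, and the T567D form carries an acidic residue in place of a phosphorylated threonine. The negative sample was the GFP-negative and the positive sample the GFP-positive fraction of the sort, with 1 array each. Both came from injected mice, so neither is an uninjected control. The labels conflict on diet and time: the growth protocol names chow throughout, whereas the descriptions name 2 months, on chow in the negative and on fast food diet in the positive sample. Diet and Ezrin T567D therefore cannot be told apart if the descriptions hold. Not given in the sources used here are the number of mice, any pooling of RNA, the feeding state and the hour of collection.

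In mammalian cells the clock is a transcriptional feedback loop. The proteins CLOCK and BMAL1 (the product of Arntl) pair and bind E-box sequences to drive the Per and Cry genes, whose proteins return to the nucleus and inhibit that pair. A second loop runs through REV-ERB repressors and ROR activators, which compete for ROR elements in genes such as Arntl and Nfil3. DBP and TEF activate genes that hold a D-box and NFIL3 represses the same sites, and through such factors the liver clock drives daily rhythms of bile acid, lipid, sugar and drug metabolism. Arntl and its co-regulated genes peak at about the opposite time of day to Per, Dbp and Nr1d1.

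The deposited values are MAS5 signals, a brightness per probe set on a linear scale that had been set to the same trimmed mean in both arrays. A background floor (275.2 for the negative array, 334.02 for the positive) was the 95th percentile of 85 probe sets for sensory receptors of smell, taste, pheromones and trace amines. A probe set above its floor in only 1 array has a bound, computed with the dimmer signal raised to its floor. Each difference is a log2 ratio, positive array divided by negative array, where 1 is 2-fold. A single array stands for each group, so the groups cannot be tested against each other and the spread between animals is unknown. The available measure of error is the disagreement between probe sets. It is the SD of a difference between 2 ratios, which is not the error of 1 ratio, and it leaves out the spread between animals. Single ratios are set beside it below only as a rough scale. Over 3131 genes that had 2 or more measured probe sets in both arrays, the ratios of the brightest pair differed with an SD of 0.41 on the log2 scale, 0.46 where the dimmer of the pair read under 1000 and 0.33 otherwise.

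The labelled cell type was checked against markers. The 10 hepatocyte markers with a probe set were above the floor in both arrays, led by Ttr and Apoa1, and Alb read 46434.5 (negative array) and 38679.3 (positive array). Of the markers with a probe set, 3 of 8 for Kupffer cells, 6 of 8 for sinusoidal endothelium, 6 of 8 for stellate cells, 1 of 5 for cholangiocytes and 0 of 7 for blood cells exceeded the floor in at least 1 array. Their summed signals in the negative and positive arrays were 1952.5 and 1769.9 for Kupffer cells, 3632.6 and 4279.7 for endothelium and 3080.9 and 3035.3 for stellate cells. These sums include markers below the floor and do not measure purity. In such bulk RNA, fewer cells of a type and less RNA per cell cannot be told apart. Markers of the lobule's zones moved apart between the arrays. All 10 pericentral markers read higher in the positive array, with a median log2 ratio of 1.11, and 8 of 9 periportal markers read lower, with a median over the 9 of -0.87. The part of these differences in the clock gene values was not tested. Neither Ezr probe set reached the floor on either array (135.3 and 15.7 for 1450850_at, and 7.6 and 13.6 for 1456725_x_at, negative then positive), so the sort could not be checked through ezrin.

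By the brightest probe set of each gene, 8 of the 10 were above background in 1 array or more, 7 of them in both, and 0 of the 8 differed by at least 2-fold, against 1.74% of the 9866 genes above the floor. At 1.5-fold the count was 1 of 8, Cry1, against 10.3% of those genes. Both counts were near the share over all genes, so they show nothing particular to the clock genes. Of the 7 genes measured in both arrays, Per2, Per3, Cry2, Clock and Nfil3 read higher in the positive array and Dbp and Tef lower, and 49.9% of all 8248 genes so measured read higher. The median log2 ratio over the 8 was 0.15, and it was 0 over all genes above the floor. These counts describe the genes that passed the floor, and Cry1 passed it through the array in which it was brighter.

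**Figure D1:**
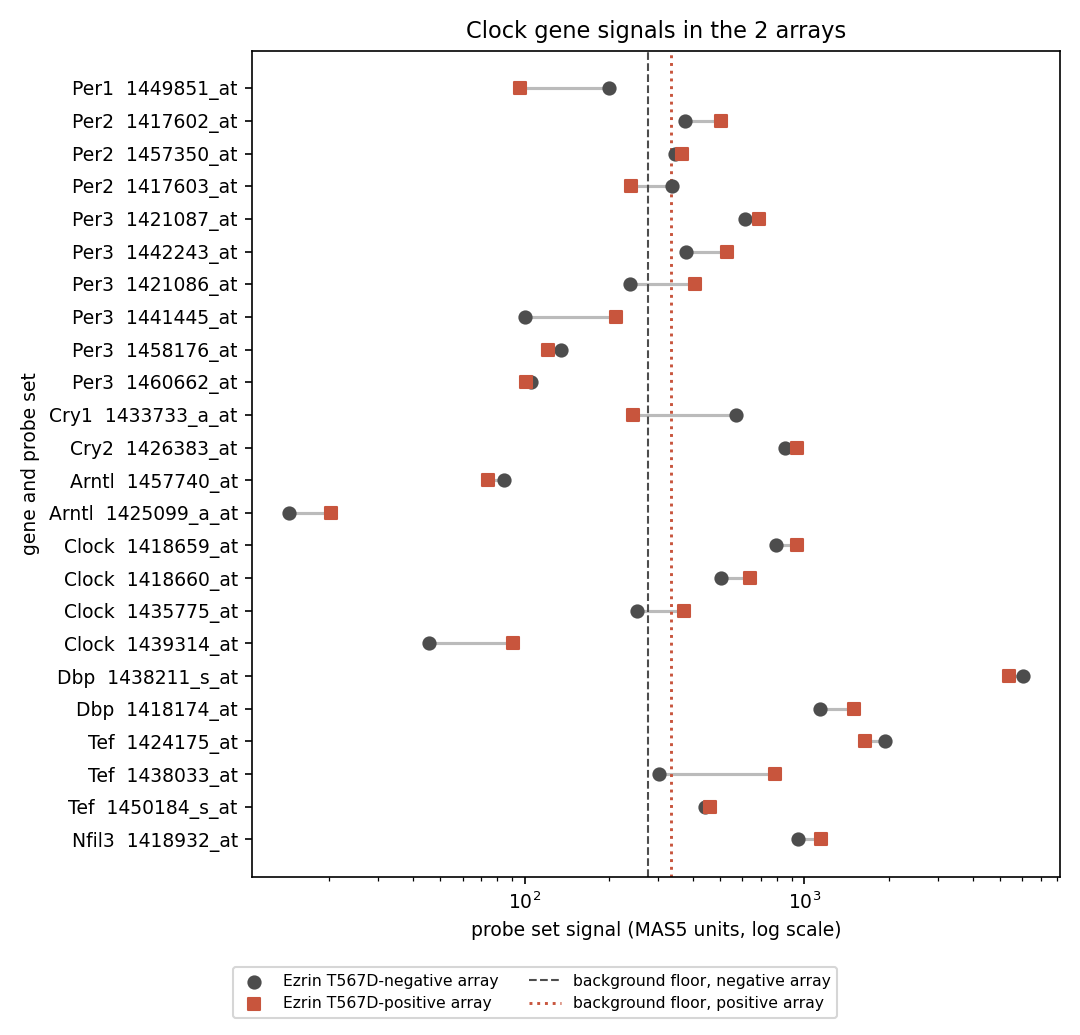
Signal of each of the 24 clock probe sets in the negative (circles) and positive (squares) array on a log axis, with the background floors of 275.2 and 334.02 as vertical lines. Per1 and Arntl lie left of both lines, and the 2 symbols of most other genes lie close together. The gaps of Cry1, Per2 1417603_at, Per3 1421086_at and Clock 1435775_at cross both lines. That of 1 Tef probe set, 1438033_at, crosses the line at 334.02.

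The Period genes encode the inhibitory subunits that carry cryptochromes into the nucleus. Per1 has 1 probe set, 1449851_at, which read 200.5 and 95.9 (negative array first, as in all pairs that follow), below the floor in both, so no ratio is given. Per2 has 3 probe sets. 1417602_at read 373.6 and 502.2, which is 1.34-fold higher in the positive array (log2 ratio 0.43). 1457350_at read 343.7 and 365.1 (0.09). The Per2 probe set 1417603_at went the other way, with 336.5 and 239.3, but the positive signal was below its floor and the bound was -0.01. Signals of Per2 were thus near the floor throughout, and its 3 probe sets gave no common direction.

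Per3, a Period gene that the core loop can run without, has 6 probe sets. The brightest, 1421087_at, read 611.1 and 686.2 (log2 ratio 0.17). 1442243_at read 378.1 and 530.9 (0.49), and 1421086_at read 237.8 and 407.1, at least 1.48-fold higher (a bound of 0.56). All 3 were higher in the positive array, 1 of them within the SD of 0.41 between probe sets and the other two past it. After loess, which corrects a lean of dim probe sets, 1442243_at was at 0.36 and the bound of 1421086_at at 0.31, both within the SD. The other 3 stayed under both floors, the negative array giving 100.6 to 135 and the positive array 100.8 to 212.9. The promoter window of Per3 is shown because it holds a pair of D-boxes, the sites to which the output factors DBP, TEF and NFIL3 bind. It covers 250 bases before to 50 after the start that RefSeq annotates (build GRCm38.p6) and is written 5′ to 3′ on the gene's strand, with the motifs in capitals.
Per3, chr4:151044616-151044915, - strand: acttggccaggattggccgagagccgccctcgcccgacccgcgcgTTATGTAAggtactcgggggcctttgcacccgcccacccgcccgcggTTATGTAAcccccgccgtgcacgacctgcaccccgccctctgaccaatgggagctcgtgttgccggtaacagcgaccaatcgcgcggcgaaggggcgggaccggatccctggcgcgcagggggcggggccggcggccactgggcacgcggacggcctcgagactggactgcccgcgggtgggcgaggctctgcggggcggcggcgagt

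The cryptochromes are the main repressors of CLOCK and BMAL1. Cry1 had the lowest value of the 8 genes above the floor in at least 1 array. Its probe set 1433733_a_at read 568 in the negative array, above the floor of 275.2, and 244.9 in the positive array, below the floor of 334.02, so the signal was at least 1.70-fold lower in the positive array (a bound of -0.77). Lower signals by at least 1.5-fold were counted for 4.11% of all genes above the floor. Cry1 has no second probe set of its own on the array, and nothing on these arrays repeats the difference. Its bound was -0.42 with the floor at the 99th percentile, under 1.5-fold. The ratio was -1.21 when the floor was instead each array's median signal (174.2 and 187.6), past 2-fold. The size of the difference therefore depends on where background is set. Cry2, the paralog of Cry1, read 853.2 and 937.3 (log2 ratio 0.14), a difference within the SD between probe sets. The Cry1 window is printed because this gene had the lowest value of those 8, with an E-box and an E′-box, a variant of it, in capitals.
Cry1, chr10:85185005-85185304, - strand: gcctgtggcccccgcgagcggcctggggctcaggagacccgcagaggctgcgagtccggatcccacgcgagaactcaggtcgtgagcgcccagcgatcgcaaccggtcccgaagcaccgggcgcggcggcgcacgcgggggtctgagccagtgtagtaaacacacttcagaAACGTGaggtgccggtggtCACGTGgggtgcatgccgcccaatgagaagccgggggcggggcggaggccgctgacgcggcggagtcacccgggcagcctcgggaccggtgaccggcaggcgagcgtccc

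The positive limb of the loop was read through Clock alone. Arntl lay below the floor in both probe sets, at 84.6 and 73.8 for 1457740_at and at 14.4 and 20.3 for 1425099_a_at. No ratio is given for it. Clock, which encodes the histone acetyltransferase partner of BMAL1, has 4 probe sets. 1418659_at read 789.8 and 944.2 (log2 ratio 0.26) and 1418660_at read 503.3 and 641.5 (0.35). 1435775_at read 253 and 372.7 with a bound of 0.44, and 1439314_at was below the floor in both arrays at 45.5 and 91.2. The 3 Clock probe sets above a floor read higher in the positive array. The 2 Clock probe sets measured in both arrays differed by 0.09 in their ratios, and 80.5% of the 1963 genes with 2 such probe sets differed by at least that much. Both ratios were within the SD of 0.41, and the bound of 1435775_at was just past it, at 0.18 after loess.

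The output factors DBP and TEF belong to the proline and acidic amino acid-rich (PAR) group of basic leucine zipper proteins. Dbp was measured by 2 probe sets that disagreed in sign. 1438211_s_at read 6046.9 and 5371.3 (log2 ratio -0.17), while 1418174_at read 1138 and 1500.6 (0.40). Their gap of 0.57 was reached by 17.3% of the genes with 2 measured probe sets, so no direction can be given for Dbp. Nfil3, the repressor at the same sites, read 945.6 and 1144.9 in its only probe set, 1.21-fold higher (log2 ratio 0.28).

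Tef gave the widest disagreement among the clock genes. Its brightest probe set, 1424175_at, read 1935.8 and 1647.3 (log2 ratio -0.23) and 1450184_s_at read 440.9 and 458.7 (0.06). The third, 1438033_at, read 301.5 and 783.2, 2.60-fold higher in the positive array (1.38). It was the only one of the 17 clock probe sets above the floor in at least 1 array to pass 2-fold, against 1.77% of the 16077 probe sets with 1 gene above the floor (1.26% higher and 0.516% lower). At 1.5-fold it was again the only one higher and Cry1 the only one lower, against 6.94% and 3.77% of those probe sets. The range of 1.61 between the Tef probe sets was reached by 5 of the 772 genes with 3 probe sets measured in both arrays, Tef among them, and the median range was 0.45. Tef was singled out for this after its values were seen. The negative signal of 301.5 lay just above the floor of 275.2, and with the 99th percentile floor the ratio of 1438033_at became a bound of 1.20, still past 2-fold. Which transcripts each probe set detects was not tested.

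**Figure D2:**
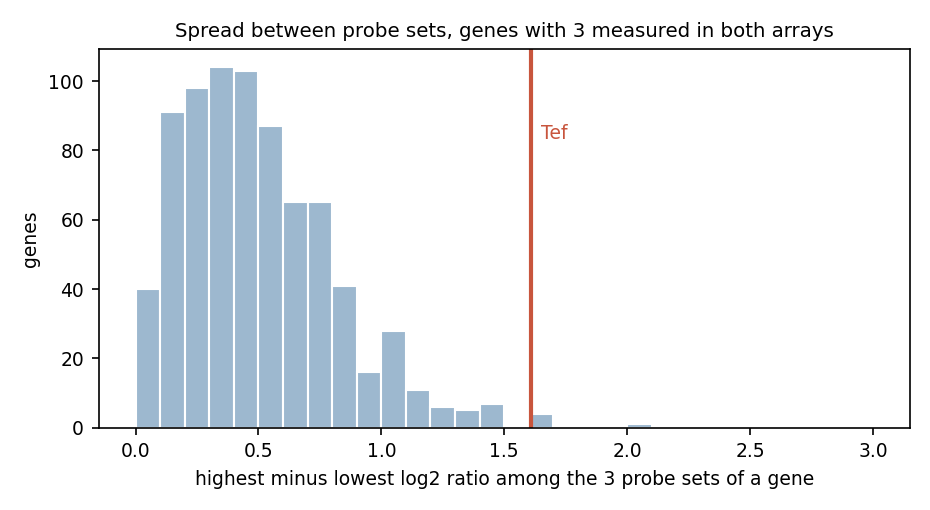
Number of genes (vertical axis) by the difference between the highest and the lowest log2 ratio of their 3 probe sets (horizontal axis), for the 772 genes with 3 probe sets measured in both arrays. The line marks Tef at 1.61, in the far right tail of the distribution, whose median is 0.45.

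RefSeq annotates 2 starts of Tef with windows in the table. Both are printed because the Tef probe sets gave different ratios, and each holds 1 E-box, in capitals, 127 bases before the upstream and 138 before the downstream start. The probe sets are not assigned to either start here.
Tef, upstream start, chr15:81802423-81802722, + strand: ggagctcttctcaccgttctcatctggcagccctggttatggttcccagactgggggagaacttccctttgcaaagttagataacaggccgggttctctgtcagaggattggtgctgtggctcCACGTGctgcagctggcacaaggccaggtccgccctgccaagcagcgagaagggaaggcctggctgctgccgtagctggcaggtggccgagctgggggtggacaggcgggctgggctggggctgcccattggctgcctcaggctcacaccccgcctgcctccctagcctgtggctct
Tef, downstream start, chr15:81811164-81811463, + strand: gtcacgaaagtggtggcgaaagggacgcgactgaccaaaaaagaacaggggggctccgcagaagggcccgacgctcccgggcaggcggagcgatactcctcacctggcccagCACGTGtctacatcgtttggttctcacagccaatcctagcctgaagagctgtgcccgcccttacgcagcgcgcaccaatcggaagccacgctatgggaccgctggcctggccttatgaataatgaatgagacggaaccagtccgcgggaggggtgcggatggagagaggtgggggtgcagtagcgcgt

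Probe set by probe set, 13 of the 24 were measured in both arrays, 4 in 1 array and 7 in neither. Of the 13, 11 read higher in the positive array and 2 lower, with a median log2 ratio of 0.26. All 13163 probe sets so measured had a median of 0.02, with 52.1% higher. Probe sets of a gene may detect the same transcripts, so they cannot be counted as independent. Of the 13, 9 had a mean signal under 1000, where ratios lean higher on these arrays: the median was 0.08 over 4319 genes up to that signal and -0.13 over 349 genes above 10000. After quantile normalization or a loess correction of this lean, 9 of the 13 read higher and 4 lower, since Per2 1457350_at and Tef 1450184_s_at turned to -0.02 and -0.05 with the former and to -0.12 and -0.07 with the latter.

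**Figure D3:**
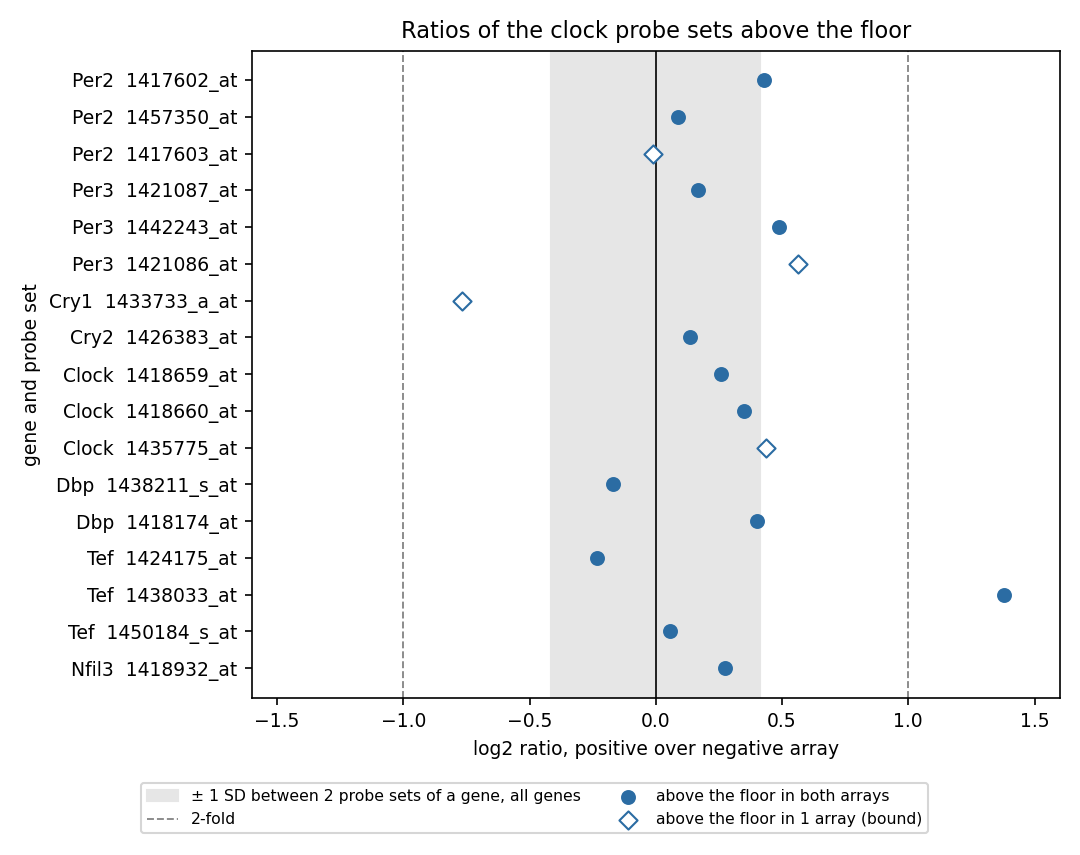
Log2 ratio (horizontal axis) of the 17 clock probe sets above the floor in at least 1 array, with filled circles measured in both arrays, open diamonds for bounds, dashed lines at 2-fold and a grey band of 1 SD (0.41) between probe sets of a gene. Tef 1438033_at at 1.38 is the only point past 2-fold, and Cry1 at -0.77 is the lowest.

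The other transcription factors of the clock were given from a list of 11, of which 10 had a probe set and 9 exceeded the floor. By the brightest probe set 8 read higher in the positive array, 0 lower and 1 had no direction. The median was 0.10, against a median of 0 over all 9866 genes above the floor, of which 4565 read higher and 4737 lower. After loess 7 of the 9 read higher and 1 lower. Nr1d1, the REV-ERBα repressor of Arntl and Nfil3, stood out with 557.4 and 1067.8, 1.92-fold higher (log2 ratio 0.94). It was the only gene of the list past 1.5-fold, where 6.2% of all genes lay on the higher side. Its single probe set kept a ratio of 0.90 after loess and 0.89 after quantile normalization. Nr1d2, its paralog, read 2040.8 and 2108.5 (0.05), and its second probe set gave 0.07. Whether the ratios of the paralogs differ beyond replicate error cannot be tested with 1 array per group.

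Hlf, the third PAR factor beside DBP and TEF, read 924.2 and 1253 (log2 ratio 0.44) in 1434735_at but 518.7 and 458.7 (-0.18) in 1434736_at. Like Dbp and Tef it had probe sets of opposite sign. The activator Rora had 7 probe sets measured in both arrays with ratios from -0.64 to 0.77, and its brightest gave 0.10. Arntl2, a paralog of Arntl, gave 0.23, and Npas2, which can replace CLOCK, read 305.1 and 352.8 (0.21), near the floor and at -0.02 after loess. Ciart (0.09) and Bhlhe40 (0.06), which both repress CLOCK and BMAL1, differed little. Rorb read 287.1 and 146.6, above background in the negative sample alone and without a usable bound, and Bhlhe41 was below the floor in both arrays at 83.2 and 30.4.

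Kinases, ubiquitin ligases and cofactors set the stability and activity of PER and CRY proteins. Of 21 listed, 18 had a probe set and 16 exceeded the floor, with 8 higher and 8 lower and a median of 0.00. At 1.5-fold the count was 0 of 16, against 10.3% of all genes. Among those measured in both arrays the largest ratios were those of the deubiquitinase Usp2 (982.4 and 722.9, -0.44), of Wdr5 (-0.42) and Gsk3a (-0.42), and of the ligase subunit Btrc (0.35). Usp2 was lower in its second probe set too, from 649.8 to a signal below the floor (282.8, a bound of -0.96). Wdr5 had a second probe set of opposite sign, at 0.54. The PER kinase gene Csnk1d had ratios from -0.17 to 0.24 over 5 probe sets, and its paralog Csnk1e was below the floor in both arrays.

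Liver genes with known clock input scattered in both directions. Of 25 listed, 20 had a probe set and 19 exceeded the floor, with 9 higher and 10 lower and a median of -0.09. At 2-fold or more 2 were higher and 0 lower, where all genes gave 1.15% and 0.598%. At 1.5-fold or more 3 were higher and 4 lower, where all genes gave 6.2% and 4.11%. Cyp7a1, which catalyses the first step from cholesterol to bile acids and is a known DBP target, read 1884.1 and 4344 (2.31-fold higher, 1.21) and its second probe set gave 1.26. Rgs16, a regulator of G protein signalling, read 1528.1 and 3381.5 (1.15), and its other probe sets gave 2.21 and 1.14. Nampt, the rate-limiting enzyme of NAD salvage, read 1772.3 and 933.3 (1.90-fold lower, -0.93), with -0.64 and -0.89 in its other probe sets. The uridine phosphorylase Upp2 read 7085.8 and 4292.8 (-0.72), with -0.48 and -0.24 in the others. After quantile normalization the brightest probe set was chosen anew and gave -0.40. That value may come from another Upp2 probe set than the one at -0.72. These 4 genes kept 1 sign over all their probe sets. Cyp7a1 is also in the pericentral list, whose median was 1.11, and the part of the zonal shift in it was not tested.

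The genes were also set by the phase at which they are known to peak. The group assigned to E-boxes and D-boxes held the Per genes, Cry2, Dbp, Tef, Hlf, Nr1d1, Nr1d2, Ciart, Bhlhe41 and Usp2. It had a median log2 ratio of 0.11 over 10 genes above the floor, 7 higher and 3 lower. The group assigned to ROR elements, which includes Arntl, Clock, Npas2, Nfil3 and Cry1, had a median of 0.23 over 4, 3 higher and 1 lower. After loess 2 of these 4 read higher and 2 lower. The medians differed by -0.12, the first minus the second, and by values from -0.15 to -0.01 under the alternatives run. Both medians were above 0. The groups were set by known phase and not by motifs found in promoter windows. Of the genes named for the ROR group, only Arntl and Nfil3 had a ROR core in a window, and Cry1 had an E-box and an E′-box.

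**Figure D4:**
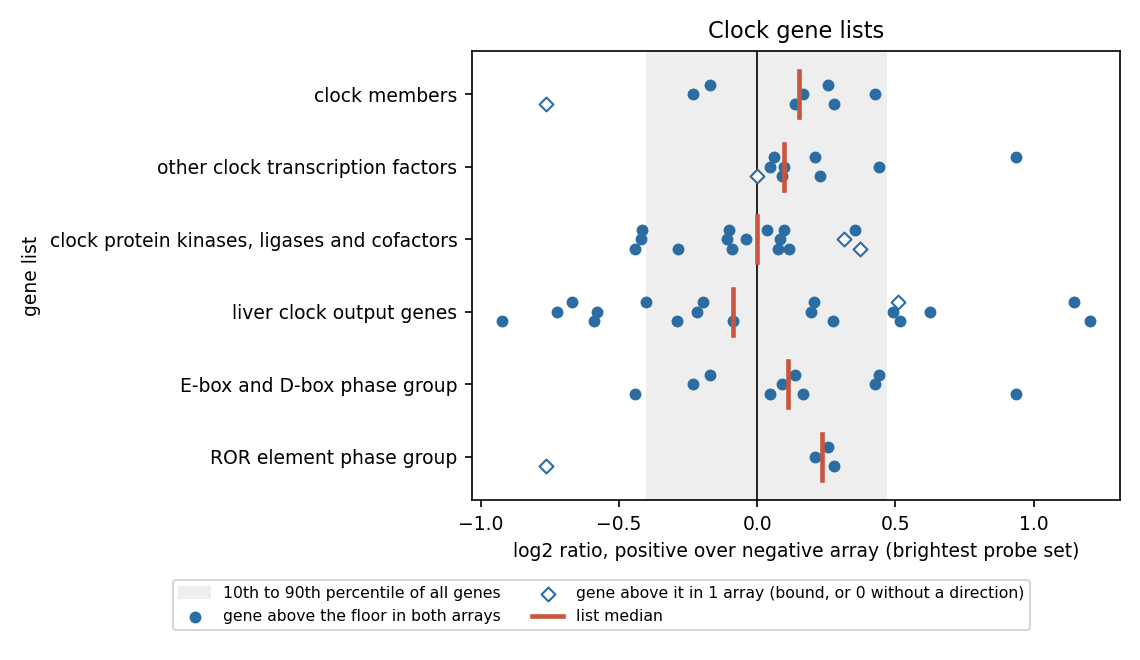
Log2 ratio (horizontal axis) of each gene above the floor by its brightest probe set, by gene list (vertical axis), with the list median as a bar and the 10th to 90th percentile of all 9866 genes (-0.40 to 0.47) in grey. The 8 clock genes above the floor are the top row with a median of 0.15, and the liver output genes spread from -0.93 to 1.21 around a median of -0.09.

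The promoter windows were searched on both strands for the E-box CACGTG, the E′-box CACGTT, the D-box as TTATGTAA or TTACGTAA, the ROR element core TAGGTCA and the cAMP element TGACGTCA. None of these contains another. RefSeq's table (GRCm38.p6) held 14 windows of 9 of the 10 genes, without Per2. An E-box was found in windows of Per1, Cry1 and Tef, 4 of 14 windows, and 7.15% of all 32851 windows hold one. The E′-box was found for Cry1 and Cry2 (4.68% of all windows). A D-box was found for Per3 alone, 205 and 158 bases before its start (1.06% of all windows), and the ROR core for Arntl and Nfil3 (2.61%). No window of the 10 genes held the cAMP element (1.79%). Cry1 and Tef, which share an E-box, read in different ways, at a bound of -0.77 for Cry1 and at -0.23, 1.38 and 0.06 for Tef. Arntl and Nfil3 share a ROR core and cannot be compared, since Arntl was below the floor. The Nfil3 window is shown because REV-ERBα, whose gene had the highest ratio by brightest probe set among the clock factors, is known to act at such elements. The core lies 12 bases before the start on the opposite strand, and its complement is in capitals.
Nfil3, chr13:52980990-52981289, - strand: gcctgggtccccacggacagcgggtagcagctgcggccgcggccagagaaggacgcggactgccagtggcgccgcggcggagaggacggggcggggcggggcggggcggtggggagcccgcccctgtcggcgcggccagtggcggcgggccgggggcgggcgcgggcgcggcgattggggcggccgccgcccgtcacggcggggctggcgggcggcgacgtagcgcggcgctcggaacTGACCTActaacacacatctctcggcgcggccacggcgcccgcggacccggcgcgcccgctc

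**Figure D5:**
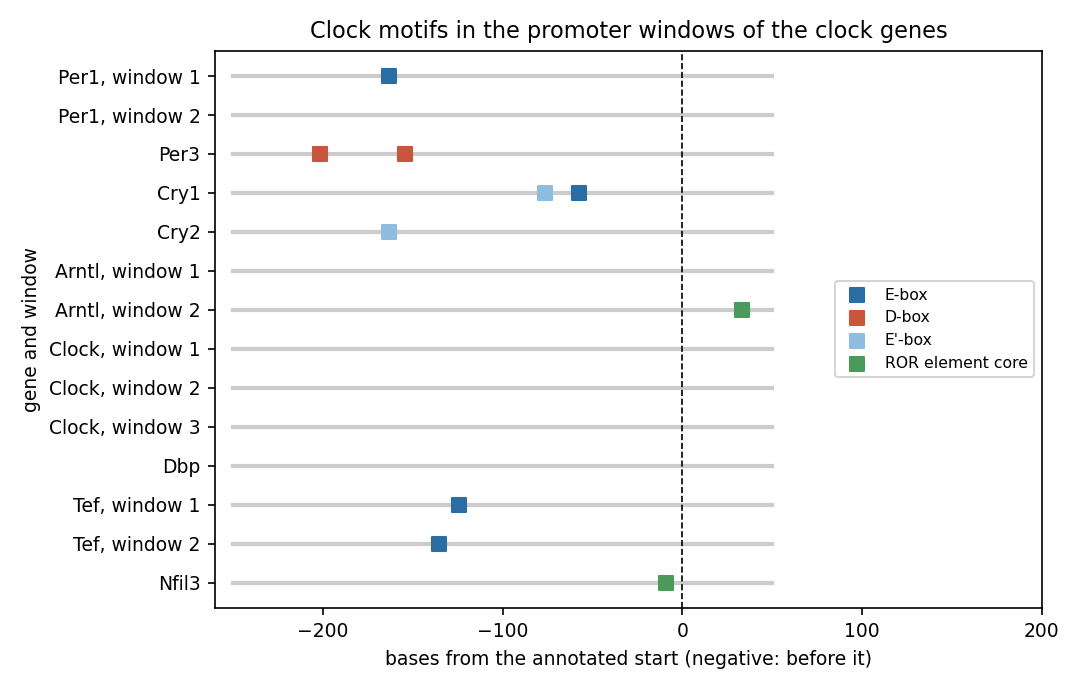
Position of each motif found (squares, coloured by motif) in the 14 promoter windows of 9 clock genes, in bases from the annotated start, from 250 before to 50 after it. E-boxes lie in 1 Per1 window, in Cry1 and in both Tef windows, and the pair of D-boxes lies in Per3.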

How the data were processed

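RNA of 1 Ezrin T567D-negative and 1 Ezrin T567D-positive hepatocyte sample was measured on 2 arrays. The deposited values are probe set intensities that the authors made with MAS5, per the submitters' processing notes, and the 2% trimmed mean was 500.0 in both. Not given in the sources used here are its version and settings, and no detection calls were used. A change in total RNA is invisible after such scaling. Signals ran from 0.2 to 71329.8 and from 0.1 to 68451.9, and the 3′ to 5′ ratio of Actb was 0.970 and 0.864 and that of Gapdh 3.46 and 3.13 (negative, positive). The number of arrays limits the precision. Of 45101 probe sets, 34945 carried 1 gene symbol, and 34741 of these were matched by Entrez ID to RefSeq's gene table, with 0 symbols changed. Those without a match kept their own symbol. Control probe sets and those with no symbol or several were left out.

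Ratios were computed in Python 3.11.15 with pandas 2.3.3, and functions were tested on simulated data. The brightest probe set by mean signal stood for a gene. A bound that pointed away from the measured side was set to 0. Promoter sequences are RefSeq's. The clock genes, gene lists, cell markers and tests were chosen with earlier results of these data known. Named genes are all 10 clock genes, the members of the list of other clock factors (1 of them is not reported here), and up to 4 genes per further list with the largest ratio measured in both arrays. Other genes named within lists were chosen after their values were seen. The alternatives changed the floor (5 ways), the scaling (2), the probe sets used (2) and the treatment of bounds (2).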

Additional observations from a re-analysis of the deposited data

How the results depend on the processing

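Across 11 alternatives and 7 results counted over gene lists, 7 of 77 values moved beyond their limit. The limit was 1.5 times for a count. For a list median it was the SD between probe sets (0.41), divided by the root of the gene number. For the difference between the phase groups it was the undivided SD. That is larger than the difference itself (-0.12), so its change to -0.01 after loess did not count as moved. The count of clock genes at least 2-fold apart, 0 of 8, was 1 (Cry1) with each array's median signal as the floor and 2 (Per1 and Cry1) with no floor, where 18.1% of all genes passed 2-fold. The count at least 1.5-fold apart, 1, was 0 with the 99th percentile floor, 0 with the mean over probe sets, 0 over genes above the floor in both arrays and 2 with no floor. The latter also moved the median over the clock genes from 0.15 to -0.018. The median moved because Per1 and Arntl then enter, at -1.06 and -0.20. Cry1, then at -1.21, was already the lowest. Leaving Olfr78, a receptor also expressed outside the nose, out of the floor was chosen after seeing the data and moved none of them.

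Of single genes, Dbp turned from -0.17 to 0.40 without probe sets whose names end in _s_at or _x_at, and Tef from -0.23 to 0.40 with the mean over its probe sets. Both follow from the disagreement of their probe sets. Over the alternatives that gave them a value, Per2 ranged from 0.26 to 0.43, Per3 from 0.10 to 0.33, Cry2 from 0.11 to 0.14, Clock from 0.23 to 0.30 and Nfil3 from 0.26 to 0.28. Cry2 and Nfil3 each have 1 probe set, above every floor used, so only the 2 scalings could change their values. No paired analysis was possible because each group holds 1 array. No replicate could be left out for the same reason. Signal over background leaves Per1 and Arntl without a value and set the size of Cry1, from -0.42 to -1.21 over the floors.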

Other observations

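The Per genes and Nfil3 are also known to answer to hormones and acute stimuli, so lists of such genes were described beside them. Genes responsive to cAMP signalling through CREB and immediate early genes had 14 of 16 members above the floor, 11 higher in the positive array and 3 lower, with a median log2 ratio of 0.51 and 4 at least 2-fold higher, where 1.15% of all genes were. At 1.5-fold 7 were higher and 0 lower, against 6.2% and 4.11% of all genes. Klf6 read 726.8 and 1711.9 (1.24), Ier2 677.2 and 1590.7 (1.23), Atf3 1674.5 and 3912.9 (1.22) and Btg2 1374.6 and 2866 (1.06). Nr4a1 (0.84), Egr1 (0.68) and Gadd45b (a bound of 0.78) were also higher and past the SD of 0.41 between probe sets. Fos (0.26) and Junb (0.12) were within that SD. So was the cAMP-responsive repressor Crem, at -0.27 and -0.08 in its 2 probe sets measured in both arrays. Per1, which belongs to this class by its known regulation, was below the floor in both arrays.

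Glucocorticoid-responsive genes had 14 of 15 members above the floor, 9 higher and 5 lower, with a median of 0.15. Over all 9866 genes above the floor 4565 read higher and 4737 lower. At 2-fold, 1.15% of all genes were higher and 0.598% lower. By the brightest probe set, Pdk4, a kinase that inhibits pyruvate dehydrogenase, was the 1 gene of the list past 2-fold. It read 187.6, below the floor, in the negative array and 890.3 in the positive, at least 3.24-fold higher (a bound of 1.69). Zbtb16 (0.68) and Cdkn1a (0.51) were also above the floor in the positive array alone, and both are bounds. Among those measured in both arrays the largest ratios were those of the gluconeogenic enzyme Pck1 (16430.8 and 10858.7, -0.60), the kinase Sgk1 (0.32), the tyrosine aminotransferase Tat (-0.27) and the transcription factor Klf9 (0.24). Klf9 had 5 probe sets measured in both arrays, with ratios from -0.19 to 0.36. Its probe set 1436952_at was above the floor in the positive array alone (266.2 and 666.8, a bound of 1.28). Fkbp5, which limits glucocorticoid receptor activity, gave -0.13 and Tsc22d3 gave 0.16. These lists were fixed with earlier results of the same arrays in view.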
